A study of Mus musculus with 3 samples.

Results

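Plasmacytoid dendritic cells (pDC) were examined in single-cell RNA of mouse spleen. Cells were chosen by raw counts of unique molecular identifiers (UMIs, tags that count captured RNA molecules). A cell needed at least 1 UMI of Siglech, a UMI of at least 2 of the 5 genes Cox6a2, Runx2, Cd7, Tcf4 and Ccr9, and 0 UMIs of the T cell gene Cd3e, the B cell gene Ms4a1 and the macrophage gene C1qa. Barcodes were kept with a minimum of 300 genes and 500 UMIs and a mitochondrial share of no more than 10%. Of the 49499 kept, 172 met this rule. They were 40 of 15984 barcodes in the library labelled Chow, 41 of 17651 in MASH and 91 of 15864 in MASH-Phe-free. Each group had 1 library, so group, animal and library cannot be told apart, and no difference between groups was tested. MASH stands for metabolic dysfunction-associated steatohepatitis, a fatty and inflamed state of the liver, and the series title names phenylalanine. The labels do not spell out Phe-free. The sources used here do not give the strain, age, diet or number of pooled animals for these spleens. The series text describes C3H mice on a diet with 60% of its energy from fat for 8 weeks, then a modified diet lacking methionine and choline. It goes on to 4 weeks of growth of implanted HCA-1 liver carcinoma and to RNA of those tumours, not of spleen.

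Plasmacytoid dendritic cells are rare immune cells that circulate in blood and settle in lymphoid organs such as the spleen. They sense viral RNA and DNA in endosomes through the Toll-like receptors TLR7 and TLR9, which signal through the adaptor MyD88 and the transcription factor IRF7, and they can then secrete large amounts of type I interferon. The transcription factor TCF4 (E2-2) maintains their identity, and they present antigen less well than conventional dendritic cells until activated.

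The gated cells were deeply sampled. Their median depth was 15520 UMIs in Chow, 16420 in MASH and 13980 in MASH-Phe-free, against 7349, 6418 and 6670 UMIs over all kept barcodes, and together they held 593137, 685678 and 1461184 UMIs. Levels below are UMIs per 1000000 (CPM) of those summed over the gated cells of a library. Bracketed 95% intervals cover counting error only, and they treat UMIs as independent of each other and of the cell they came from. Of the kept barcodes of any 2 libraries, between 65 and 89 shared a cell barcode, and 0 of these was a gated cell. The doublet caller Scrublet marked 1 gated cell, in Chow, and 315, 318 and 304 kept barcodes in the libraries.

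The label was first checked against marker genes that the rule did not use. All 18 fixed pDC markers had UMIs in the gate in every library. That list includes Siglech and the 5 further genes of the rule, and for these it is no check. Bst2, which encodes the defining surface protein BST2 (PDCA-1), stood at 3537, 3984 and 2971 CPM in the order Chow, MASH and MASH-Phe-free, which is kept below, against 40.4 to 267 CPM in gates drawn for type 1 conventional dendritic cells (cDC1), type 2 conventional dendritic cells (cDC2), B cells and T cells. Klk1, a kallikrein protease gene, was at 135, 125 and 68.4 CPM in pDC and at most 0.790 CPM in the other 4 gates. Upb1, a pyrimidine breakdown enzyme, was at 255, 306 and 248 CPM against at most 33.9 CPM elsewhere. Irf8, a transcription factor that both pDC and cDC1 need, was at 2790, 2403 and 2743 CPM in pDC and 1503 to 1831 CPM in cDC1. Spib, a transcription factor of pDC and B cells, was at 263, 235 and 185 CPM in pDC, 150 to 171 CPM in B cells and at most 17.2 CPM in the other gates. Among the listed markers, Ly6d, which B cells share, had a UMI in only 27.5%, 22.0% and 28.6% of gated cells. The level of Cd300c went against the label. Cd300c, an activating receptor gene, was at 6.74, 4.38 and 12.3 CPM in pDC and 136 to 187 CPM in cDC1. Id2, which restrains TCF4 and is a mark of conventional lineages, was at 150 to 175 CPM in pDC and 1252 to 1370 CPM in cDC1.

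**Figure D1:**
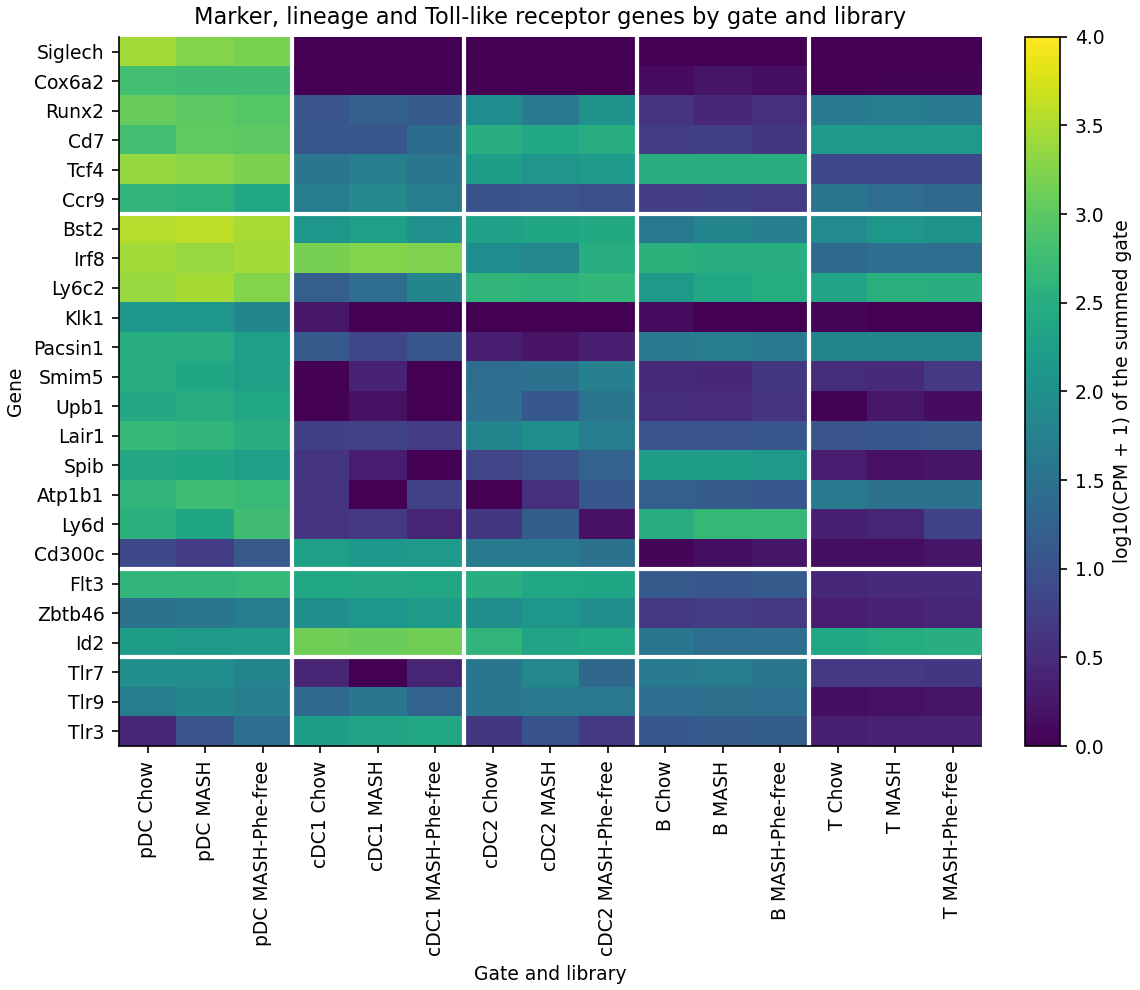
Level of 24 genes, as log10(CPM + 1) of the summed cells, in the pDC gate and 4 comparison gates of each library. From top to bottom, white lines separate the genes of the rule, pDC markers outside the rule, genes of dendritic development and Toll-like receptors, and Siglech is 0 in the other gates by their definition.

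The genes of the rule are given as a description. Siglech (ENSMUSG00000051504), a surface receptor gene, stood at 2794 (Chow), 1839 (MASH) and 1571 (MASH-Phe-free) CPM. Tcf4 was at 2303, 2033 and 1627 CPM, Runx2 at 1168, 990 and 895 CPM, and Ccr9, a gut-homing chemokine receptor, at 406, 389 and 237 CPM. Cox6a2, a subunit of cytochrome oxidase, was level at 610, 583 and 592 CPM, and Cd7 was at 627, 1040 and 995 CPM. All 5 further genes were present in 85 of the 172 cells, 4 in 42, 3 in 36 and 2 in 9. Cells with Siglech but only 1 of the 5 genes, just outside the rule, numbered 4, 6 and 4, with at most 3 UMIs of Siglech, and the 1, 4 and 4 cells just inside it each had 1 UMI of Siglech. A further 15, 9 and 16 cells failed only on Cd3e, Ms4a1 or C1qa. Among 2287 barcodes with at least 2 of the 5 genes, 0 UMIs of Siglech and none of the barring genes, 4, 1 and 5 carried at least 4 of the 8 outer markers named next.

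The gate did not hold 1 uniform kind of cell. Siglech per cell ran from 24.2 to 6689 CPM in Chow, from 35.4 to 4930 CPM in MASH and from 23.02 to 6282 CPM in MASH-Phe-free, with medians of 3306, 2231 and 1526 CPM. A line at 1000 CPM, drawn after the data were seen, left 32, 25 and 54 cells above it and 8, 16 and 37 below. It cuts a range and marks no cell type, since 5, 7 and 27 cells lay between 500 and 2000 CPM. The 8 outer markers Klk1, Pacsin1, Smim5, Upb1, Lair1, Spib, Atp1b1 and Ly6d were outside the rule and were likewise chosen after their values were seen. At least 4 of them were present in 28, 23 and 51 of the cells above the line and in 1, 7 and 14 of those below it. The same count was reached by 0 of the cDC1 cells, by 0, 1 and 2 cDC2 cells, by 3.01% to 4.04% of B cells, which share Spib and Ly6d, and by at most 0.0966% of T cells.

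**Figure D2:**
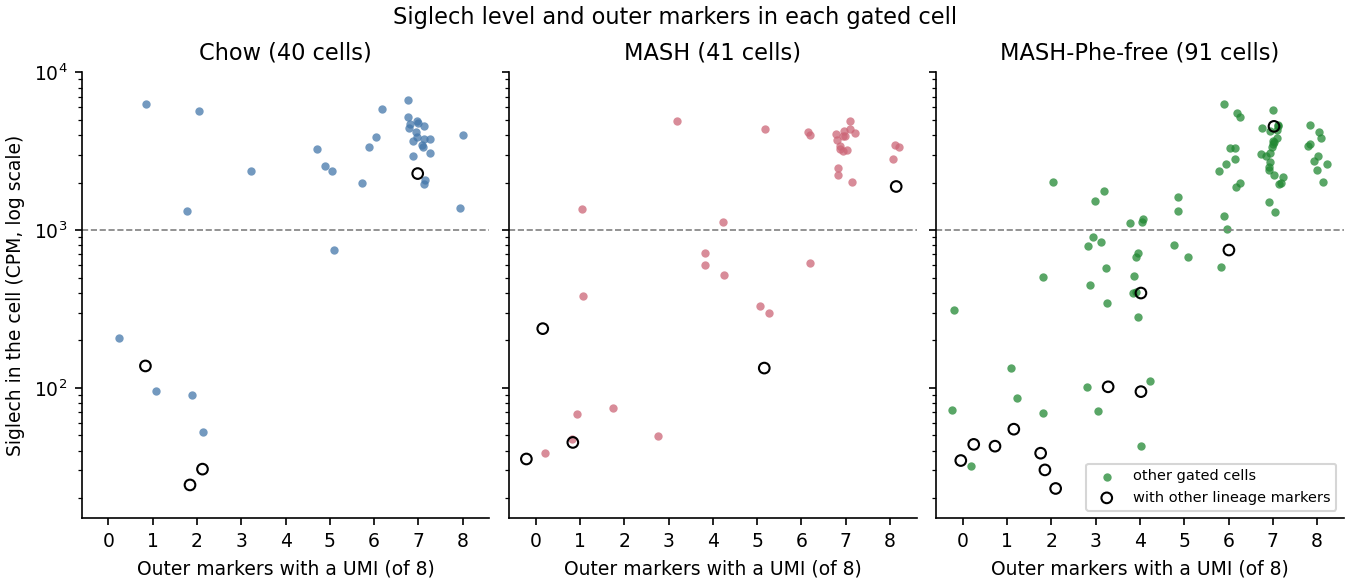
Siglech of each gated cell (CPM, logarithmic axis) against the number of 8 outer pDC markers with a UMI, 1 point per cell with small sideways shifts. Cells above the dashed line at 1000 CPM mostly carried 5 to 8 outer markers, and the open circles, cells with many UMIs of another lineage's marker, lay mostly below it.

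Some picked genes of other myeloid lineages stood higher below the line. Not all such genes did, since the monocyte gene Ccr2 in MASH-Phe-free was no higher over the whole gate than above the line. The monocyte gene Ms4a6c was at 765, 1253 and 701 CPM below the line and 110, 181 and 245 CPM above it. Klf4, a transcription factor of monocytes and some dendritic cells, was at 389, 250.6 and 312 CPM below and 51.5, 16.9 and 117 CPM above. Zbtb46, a mark of conventional dendritic cells, was at 95.6, 63.4 and 85.3 CPM below and 8.96, 11.3 and 9.85 CPM above, and the fractalkine receptor Cx3cr1 at 102, 172 and 117 CPM below and 4.48, 5.64 and 23.9 CPM above. Tlr7 was at 6.83, 21.1 and 6.67 CPM below and 121, 152 and 124 CPM above. These genes were picked after the split was seen, and the cells below the line are given no name of their own. A total of 4, 5 and 12 cells, of which 1 in each library lay above the line, held at least 10 UMIs of S100a8, Hbb-bs, Lyz2 or Gzma or at least 5 of Xcr1 or Mpo. A single Chow cell carried 99.3% of the neutrophil-marker UMIs of its gate and a single MASH cell 99.0% of the erythroid-marker UMIs. Likewise 1 Chow cell and 1 MASH cell held 98.3% and 98.1% of the natural killer-marker UMIs. Low counts of the haemoglobin gene Hbb-bs were more widespread, with a UMI in 7.50%, 53.7% and 27.5% of gated cells. The shares in T cells were 5.22%, 55.2% and 18.2%, also highest in MASH. The main list results below are therefore given also for the cells above the line and without those 4, 5 and 12 cells. Lymphoid markers were low. The 10 T markers summed to 48.9, 19.0 and 30.8 CPM with 5, 5 and 6 of them at 0, and the 10 B markers to 145, 124 and 110 CPM with 2, 3 and 2 at 0.

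The first question was how many of these cells each spleen library held. The pDC share was alike in Chow and MASH and higher in MASH-Phe-free. It was 0.250% [0.179–0.341] of kept barcodes in Chow, 0.232% [0.167–0.315] in MASH and 0.574% [0.462–0.704] in MASH-Phe-free. The ratio of MASH to Chow was 0.928 [0.601–1.43], that of MASH-Phe-free to MASH 2.47 [1.71–3.57], and that of MASH-Phe-free to Chow 2.29 [1.58–3.32]. Among the 3 dendritic gates together, pDC made up 40 of 276 cells in Chow (14.5%), 41 of 409 in MASH (10.02%) and 91 of 355 in MASH-Phe-free (25.6%). The other dendritic gates did not follow the same order, since cDC1 were 1.06%, 1.246% and 0.920% and cDC2 were 0.419%, 0.838% and 0.744% of kept barcodes. Cells with Siglech of at least 1000 CPM were 0.2002%, 0.142% and 0.340%, with a MASH-Phe-free to MASH ratio of 2.40 [1.497–3.86] and a MASH to Chow ratio of 0.708 [0.420–1.19]. Cells below that line were 0.0500%, 0.0906% and 0.233%, also highest in MASH-Phe-free. Within the gate, the cells above the line made up 80.0% in Chow, 61.0% in MASH and 59.3% in MASH-Phe-free.

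**Figure D3:**
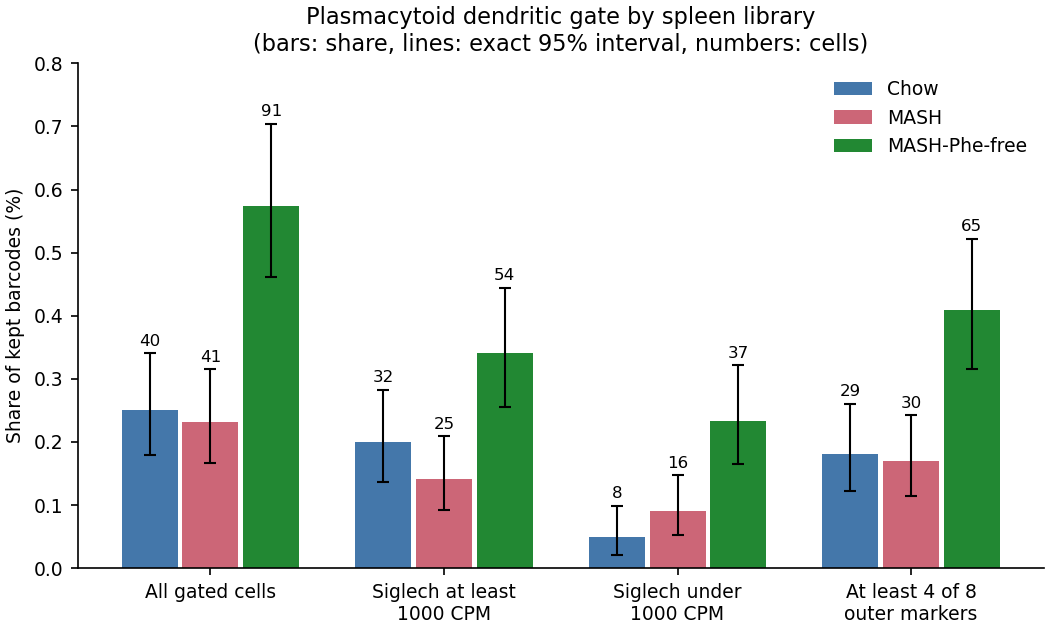
Share of kept barcodes (%) that fell in the pDC gate and in 3 subsets of it, by library, with exact Clopper-Pearson 95% intervals and the number of cells above each bar. MASH-Phe-free has the tallest bar in each set, and the Chow and MASH intervals overlap in each.

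The sensing machinery came next, since it sets what these cells respond to. Tlr7, the single-stranded RNA receptor, was at 92.7 (Chow), 89.0 (MASH) and 63.7 (MASH-Phe-free) CPM, against 34.9 to 46.8 CPM in B cells and 3.33 to 3.87 CPM in T cells. MASH over Chow gave a ratio of 0.959 [0.655–1.41] and MASH-Phe-free over MASH 0.715 [0.512–1.01], both with 1 inside the interval. Tlr9, the receptor for unmethylated DNA, was at 48.9, 67.1 and 51.3 CPM, against 25.7 to 28.8 CPM in B cells and at most 0.707 CPM in T cells. Above 1000 CPM of Siglech, Tlr9 was at 60.45, 70.54 and 81.58 CPM, highest in MASH-Phe-free. Tlr7 there gave ratios of 1.26 [0.848–1.873] for MASH over Chow and 0.8124 [0.5725–1.162] for MASH-Phe-free over MASH, both with 1 inside the interval. With every cell thinned to 7213 UMIs, Tlr7 was seen in 14 of 33, 17 of 37 and 25 of 84 cells (42.4%, 45.9% and 29.8%) and in 2.05%, 1.82% and 1.84% of T cells. Thinning left out 7, 4 and 7 shallower pDC. Before thinning the shares were 52.5%, 58.5% and 42.9% in pDC and 2.75%, 2.43% and 2.27% in T cells, whose median depths were 9175, 9225 and 8475 UMIs. Unc93b1, the chaperone that carries these receptors to the endosome, was at 759, 855 and 666 CPM, and the adaptor Myd88 at 64.1, 77.3 and 77.3 CPM. Tlr3, a cDC1 receptor, was at 1.69, 10.2 and 28.1 CPM in pDC and 176 to 240 CPM in cDC1, whose gate uses it among other genes. Of 23 sensing genes, 18 could be compared between MASH and Chow, and 2 were past 1.5-fold higher and 0 past 1.5-fold lower. A gene was compared where its UMIs over both libraries reached 50, and log2 ratios were taken after 10 CPM was added to each level. Over all 4861 genes compared, 4.61% were past 1.5-fold higher in MASH and 5.97% past 1.5-fold lower. The sensing genes that were past it were Irf7, described below, and the co-receptor Cd14, at 37.1, 86.0 and 75.3 CPM. Above 1000 CPM of Siglech 13 sensing genes could be compared between MASH and Chow. Of those, 1 was past 1.5-fold higher and 1 lower, where 3.94% and 7.04% of all genes were.

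No interferon transcript was seen in pDC. The 20 genes of type I and type III interferons had 0 UMIs in the gate in each library, which allows up to 5.06, 4.38 and 2.05 CPM for a gene and up to 7.50%, 7.32% and 3.30% of cells with a UMI. Over all kept barcodes the same genes had 6, 9 and 3 UMIs. Il12a, a subunit of interleukin 12 chosen like the chemokines here after its values were seen, had its UMIs in 5, 3 and 16 cells and stood at 11.8, 8.75 and 38.3 CPM. Chemokine genes came from few cells: 94.2% of the Ccl4 UMIs of MASH-Phe-free and 97.2% of the Ccl5 UMIs of MASH lay in 1 cell each.

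The next comparison was of MASH with Chow. Genes of the type I interferon response were higher in MASH. All 23 members that could be compared, of 40 listed, were higher in MASH, and 13 were past 1.5-fold where 4.61% of all genes were. Their median log2 ratio was 0.67, against −0.02 over all genes. The count minimum bears on this number, since 18 had at least 50 UMIs in MASH alone and 12 had them in Chow alone. Some members low in Chow thus entered through MASH, and the list was chosen with earlier results of these data known. The count is a description and no support for the direction. Ifi27l2a (ENSMUSG00000079017), a small interferon-induced membrane protein gene, was at 415 (Chow), 1278 (MASH) and 517 (MASH-Phe-free) CPM, a MASH to Chow ratio of 3.08 [2.67–3.56]. Irf7 (ENSMUSG00000025498), the regulator that drives interferon production in pDC, was at 192, 448 and 180 CPM, a ratio of 2.33 [1.87–2.91]. MASH was the highest library for both genes, with Chow and MASH-Phe-free near each other. Cells overlapped, since Irf7 per cell had a median of 188 CPM in Chow (from 0 to 1567), 340 in MASH (from 0 to 2029) and 147 in MASH-Phe-free (from 0 to 759). Phf11b, an interferon-induced zinc finger gene, was at 45.5, 106 and 60.9 CPM, a ratio of 2.34 [1.49–3.78], and Slfn5, of the Schlafen family, at 103, 198 and 89.7 CPM, a ratio of 1.93 [1.42–2.65]. Isg15, a ubiquitin-like modifier, was outside the naming rule and is added because of its upstream sequence. It was at 23.6, 112 and 26.01 CPM, and 1 MASH cell held 37.7% of its UMIs. The interferon receptor chains Ifnar1 and Ifnar2 were at 216, 226 and 164 CPM and at 598, 602 and 554 CPM.

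The sequences upstream of 4 of these genes are shown because interferon signalling acts through short DNA repeats there. The motif searched was GAAANNGAAA on both strands, the core of the interferon-stimulated response element, with overlapping matches counted. Each stretch covers the 150 to 31 bases before the annotated start, read 5′ to 3′ along the gene, with the bases of any match in capitals. They are RefSeq sequences of GRCm38.p6, an older build than the GRCm39 used for the counts. The 4 stretches are chr4:156200849-156200968 for Isg15, chr8:71537503-71537622 for Bst2, chr14:59341361-59341480 for Phf11b and chr7:141266455-141266574 for Irf7, all on the minus strand.
Isg15: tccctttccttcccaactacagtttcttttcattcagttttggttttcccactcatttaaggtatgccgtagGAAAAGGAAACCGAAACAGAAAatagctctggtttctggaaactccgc
Bst2: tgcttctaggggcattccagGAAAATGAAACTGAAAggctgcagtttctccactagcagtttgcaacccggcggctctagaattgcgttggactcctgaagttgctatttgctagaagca
Phf11b: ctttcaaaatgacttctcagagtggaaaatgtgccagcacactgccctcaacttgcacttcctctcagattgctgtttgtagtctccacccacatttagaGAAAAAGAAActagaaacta
Irf7: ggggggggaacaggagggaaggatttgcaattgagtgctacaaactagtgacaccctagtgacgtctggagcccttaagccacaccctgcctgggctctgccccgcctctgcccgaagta
Isg15 held 3 overlapping matches, Bst2 2, Phf11b 1 and Irf7 0. Of the 40 listed members, 28 had a promoter window in the RefSeq table, from 250 bases before to 50 after the start, and 18 of these (64.3%) held the motif. The motif was in 1079 of 27025 genes with a window (3.99%) and in 1131 of 32851 windows (3.44%). A match describes the letters and is not a measured binding site.

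The interferon result was smaller in the cells with high Siglech and changed when few cells were left out. Above 1000 CPM of Siglech, 16 members could be compared, 13 were higher in MASH, 4 were past 1.5-fold where 3.94% of all genes were, and the median was 0.39. Below that line, 14 could be compared, 13 were past 1.5-fold where 14.9% of all genes were, and the median was 1.56. This rests on 8 Chow and 16 MASH cells. For the list without Bst2, 1 cell held 51.5% of the Chow sum below the line and 1 cell 24.7% of the MASH sum. The MASH cell with the highest level, 29530 CPM, carried another lineage's markers. Without the cells that carried another lineage's markers, 17 could be compared, 5 were past 1.5-fold where 4.96% of all genes were, and the median was 0.14. The share of cells above the line also differed between Chow and MASH, and the part of cell makeup in the result was not tested. Irf7 kept its size above the line, at 231 (Chow), 514 (MASH) and 249 (MASH-Phe-free) CPM, a MASH to Chow ratio of 2.23 [1.74–2.86]. Ifi27l2a was at 428, 926 and 798 CPM there, a ratio of 2.16 [1.81–2.60]. Slfn5 was at 87.3, 104 and 71.7 CPM, with a ratio of 1.20 [0.741–1.93] whose interval holds 1. Summed over the list without Bst2, single cells ranged from 480 to 12540 CPM in Chow, from 617 to 29530 CPM in MASH and from 898 to 10030 CPM in MASH-Phe-free. The medians were 3922, 4689 and 3502 CPM, so the libraries overlapped widely, and 1 MASH cell held 13.8% of that library's sum. The same 20 members had a median MASH to Chow log2 ratio of 0.56 in pDC, 0.68 in cDC1, 0.44 in cDC2, 0.52 in B cells and 0.31 in T cells, so pDC lay within the range of the other gates.

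**Figure D4:**
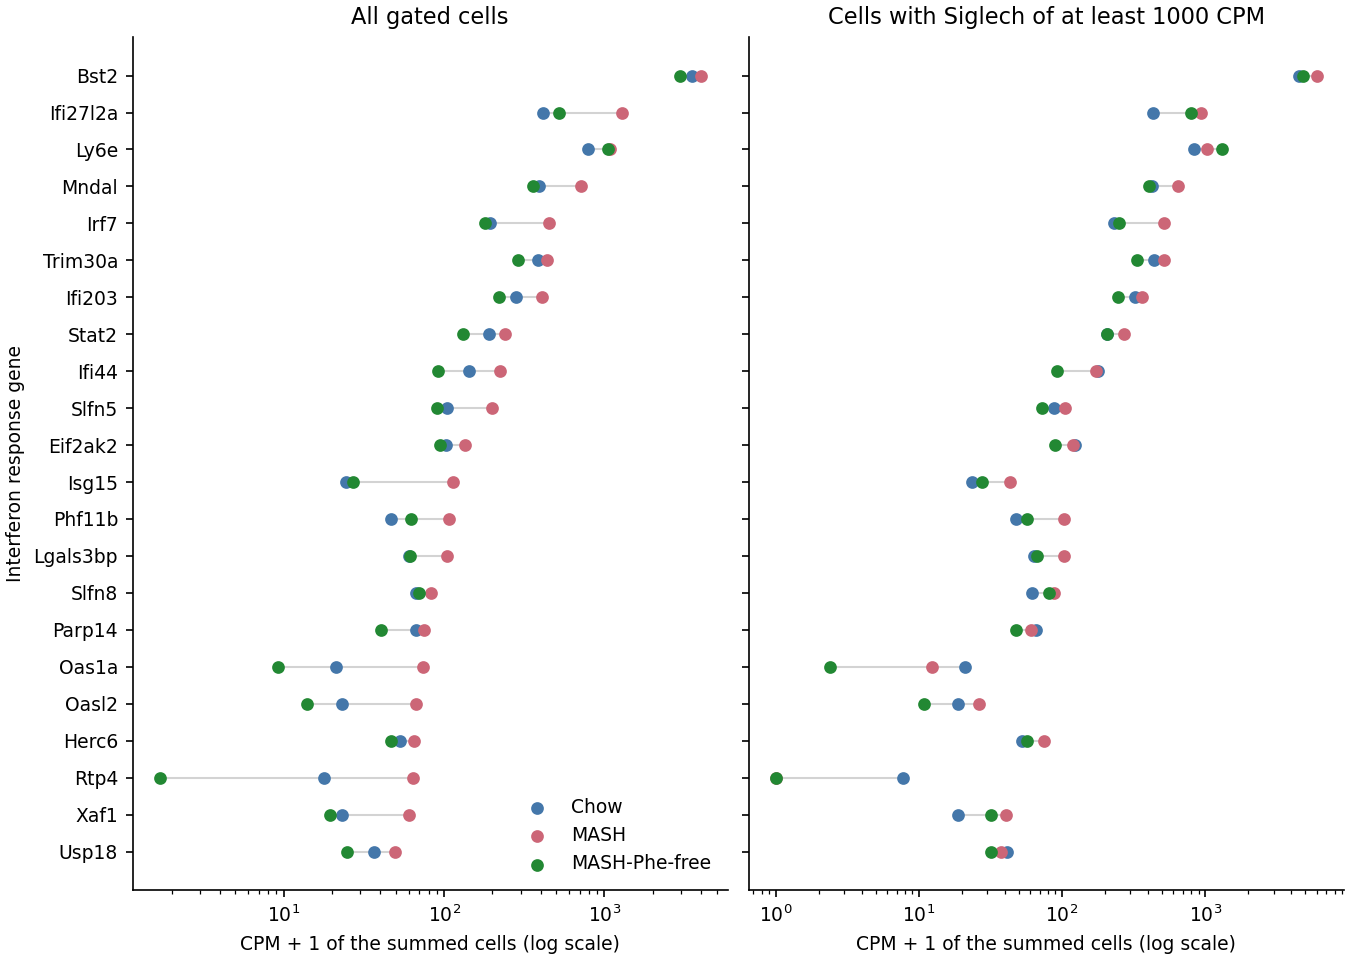
Level (CPM + 1, logarithmic axis) of 22 of the 23 interferon response genes compared between MASH and Chow, over all gated cells and over cells with Siglech of at least 1000 CPM. On the left MASH is the rightmost point for each gene, and on the right the libraries lie closer together, with Rtp4 at 0 in MASH and MASH-Phe-free.

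The summed levels of antigen presentation genes were also higher in MASH than in Chow, by less. All 21 members that could be compared, of 25 listed, were higher, 4 were past 1.5-fold where 4.61% of all genes were, and the median log2 ratio was 0.43. Of the listed members, 19 had at least 50 UMIs in MASH alone and 17 had them in Chow alone. The count minimum bears on this number too, and the count is a description and no support for the direction. MHC class II genes summed per cell had medians of 23160 CPM in Chow, 22930 in MASH and 15590 in MASH-Phe-free, against 20160, 25660 and 18650 CPM over the whole gate. Ciita, the master switch of MHC class II genes, was at 115 (Chow), 238 (MASH) and 136 (MASH-Phe-free) CPM, a ratio of 2.07 [1.55–2.79], which above the line was 1.56 [0.995–2.46] with 1 inside the interval. H2-DMb2, which helps load peptides, was at 271, 445 and 436 CPM, a ratio of 1.64 [1.35–1.996], and the lysosomal protease Ctss at 959, 1432 and 925 CPM, a ratio of 1.49 [1.34–1.66]. Cd74, the class II chaperone and a gene outside the naming rule, was at 11770, 14910 and 10320 CPM. In cells above the line 17 of 18 members were higher, 0 were past 1.5-fold where 3.94% of all genes were, and the median was 0.30, and without the cells with other lineage markers it was 0.24. On the same 21 members the median was 0.43 in pDC and 0.07, 0.06, 0.03 and 0.22 in cDC1, cDC2, B and T cells. The difference between gates was not tested. Costimulatory genes were sparse, with Cd86 at 3.37, 19.0 and 21.2 CPM and Cd80 at 5.06, 13.1 and 7.53 CPM.

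Glucocorticoid targets were lower in MASH. Of 13 listed, 7 could be compared, 6 were past 1.5-fold lower where 5.97% of all genes were, and the median log2 ratio was −0.94. The count minimum bears on this number. All 7 had at least 50 UMIs in Chow alone and 4 had them in MASH alone, and above the line 7 and 3 did. Members low in MASH thus entered through Chow, and the count is a description and no support for the direction. Fkbp5 (ENSMUSG00000024222), a co-chaperone of the glucocorticoid receptor, was at 263 (Chow), 43.8 (MASH) and 67.1 (MASH-Phe-free) CPM. Its MASH to Chow ratio of 0.166 [0.109–0.247] was the lowest among the genes named over the whole table. Fkbp5 per cell had a median of 267 CPM in Chow and 0 in the other libraries, with overlap between single cells. Ddit4, a stress-induced brake on mTOR signalling, was at 273, 125 and 87.6 CPM, a ratio of 0.459 [0.349–0.6001], and Pik3ip1, a negative regulator of phosphoinositide 3-kinase, at 105, 49.6 and 64.3 CPM, a ratio of 0.474 [0.303–0.732]. Above 1000 CPM of Siglech the median was −0.61 with 4 of 7 past 1.5-fold lower where 7.04% of all genes were, and Fkbp5 had a ratio of 0.181 [0.106–0.295]. Below the line 3 of 4 were past it where 7.95% of all genes were, with a median of −1.14. Without cells carrying other lineage markers 5 of 7 were past it where 6.36% of all genes were, with a median of −0.86. The 6 members shared with the other gates had medians of −1.003 in pDC, −1.45 in cDC1, −1.14 in cDC2, −0.87 in B cells and −0.76 in T cells. These medians were below 0 in each gate. They rest on members that passed the count minimum in pDC, so they too are a description and no support for the direction.

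Identity genes came next between Chow and MASH. Of 20 pDC markers outside the rule, 19 could be compared, 0 were past 1.5-fold higher and 1 past 1.5-fold lower, where 4.61% and 5.97% of all genes were, with a median of −0.08 that turned to 0.24 above 1000 CPM of Siglech. Above that line 15 of 19 were higher in MASH and 4 lower. There 3 were past 1.5-fold higher and 0 past 1.5-fold lower, where 3.94% and 7.04% of all genes were. Smim5, a small membrane protein gene, was at 336, 228 and 185 CPM, a ratio of 0.678 [0.546–0.841], but at 432, 426 and 333 CPM above the line. Plac8, a gene of myeloid and pDC lineages, was at 1809, 2708 and 2208 CPM, a ratio of 1.497 [1.39–1.61]. Among transcription factors Id3, an inhibitor of E proteins, was at 120, 43.8 and 80.8 CPM, a ratio of 0.366 [0.230–0.567]. Xbp1, which builds the secretory apparatus, was at 258, 160 and 187 CPM, a ratio of 0.622 [0.482–0.7998]. The secretory list had a median of −0.16 with 4 of 22 members past 1.5-fold lower and 0 higher, where 5.97% and 4.61% of all genes were. The chaperone genes Creld2, at 94.4, 58.3 and 67.7 CPM, and Dnajc3, at 266, 174 and 168 CPM, were among them. Above 1000 CPM of Siglech 0 of 21 secretory genes were past 1.5-fold higher or lower, where 3.94% and 7.04% of all genes were. Their median there was −0.04.

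Receptors on the cell surface split in both directions. Ccr2, the receptor that brings monocytes and some pDC out of the marrow, was at 347 (Chow), 665 (MASH) and 462 (MASH-Phe-free) CPM, a ratio of 1.91 [1.62–2.27]. It was at 302, 426 and 467 CPM above 1000 CPM of Siglech, a ratio of 1.41 [1.11–1.79]. The monocyte gene Ms4a6c, among the highest ratios over all genes, was at 271, 699 and 479 CPM, a ratio of 2.57 [2.15–3.10]. The 8 monocyte markers summed to 2382, 3290 and 1357 CPM, with 49.6% of these UMIs in 1 cell in Chow, 43.7% in MASH and 17.4% in MASH-Phe-free. Their medians per cell were 5, 11 and 11 UMIs, and their part in these values was not tested. Fcer1g, a signalling chain that pairs with activating and inhibitory receptors, was at 706, 1107 and 934 CPM, a ratio of 1.57 [1.39–1.77], but at 616, 618 and 803 CPM above the line. Il7r, the interleukin 7 receptor chain, was at 322, 206 and 253 CPM, a ratio of 0.639 [0.510–0.798], and at 425, 387 and 398 CPM above the line. Cxcr3, a receptor for interferon-induced chemokines, was at 101, 67.1 and 69.1 CPM, a ratio of 0.663 [0.442–0.990]. Other genes with the largest ratios were Ass1, an arginine synthesis enzyme, at 35.4, 118 and 93.1 CPM, and Marcks, a membrane-bound kinase substrate, at 97.8, 264 and 209 CPM. The interferon-inducible Ifi207 and Ifi209 stood at 48.9, 147 and 84.2 CPM and at 48.9, 131 and 89.0 CPM. At the other end were Fhit at 152, 40.8 and 51.3 CPM, Arhgap24 at 103, 32.1 and 34.2 CPM and Serinc5 at 128, 45.2 and 34.2 CPM. Genes of the Ifi200, Schlafen, Ly6 and MHC families have near-identical copies, and the sources used here do not give how reads were divided among copies.

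**Figure D5:**
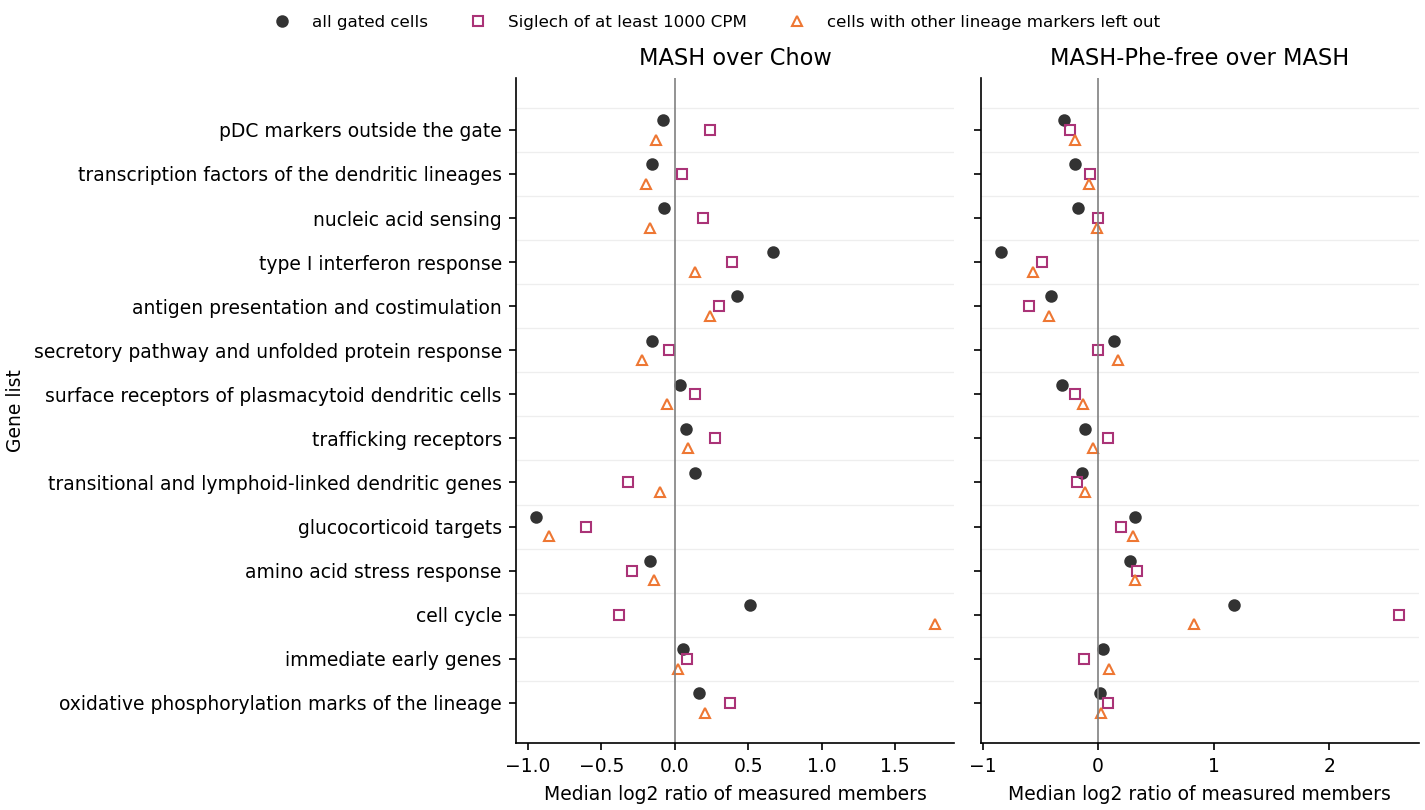
Median log2 ratio (10 CPM added) of the members of 14 gene lists that could be compared, for MASH over Chow and for MASH-Phe-free over MASH. Points show all gated cells, squares the cells with Siglech of at least 1000 CPM and triangles the gate without cells carrying other lineage markers; the interferon response and antigen presentation lie to the right of 0 in the first panel and to the left in the second.

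The last comparison was of MASH-Phe-free with MASH, with the Chow value beside it. Both comparisons use the MASH library, so a value peculiar to that library enters each with opposite sign. Interferon response genes were lower in MASH-Phe-free. All 26 members that could be compared were lower and 19 were past 1.5-fold, where 4.13% of 6715 genes compared were past it in that direction and 5.99% in the other. The median log2 ratio was −0.84, against 0.02 over all genes. Of the 26, 18 had at least 50 UMIs in MASH alone and 17 had them in MASH-Phe-free alone. The count minimum bears on this number too, and the count is no support for the direction. Irf7 had a ratio of 0.402 [0.340–0.476] and Ifi27l2a of 0.404 [0.366–0.446]. Ifi44, an interferon-induced microtubule-associated gene, was at 142 (Chow), 222 (MASH) and 90.3 (MASH-Phe-free) CPM, a ratio of 0.407 [0.320–0.518], and Slfn5 had a ratio of 0.452 [0.353–0.579]. Against Chow, the MASH-Phe-free values had a median of −0.11 over 20 members. Above 1000 CPM of Siglech, 16 of 17 members were lower, 5 were past 1.5-fold where 4.61% of all genes were, and the median was −0.48. Without the cells with other lineage markers, 8 of 18 were past 1.5-fold lower where 3.60% of all genes were, and the median was −0.56. Below the line 14 of 18 were past 1.5-fold lower where 8.81% of all genes were, with a median of −1.21. There 1 of 16 MASH cells held 24.7% of the MASH sum of the list without Bst2. Irf7 had a ratio of 0.485 [0.392–0.5996] above the line and Ifi27l2a of 0.862 [0.751–0.990]. On 24 shared members the median was −0.80 in pDC, −0.58 in cDC1, −0.69 in cDC2, −0.43 in B cells and −0.20 in T cells.

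Antigen presentation was lower as well. Of 22 members that could be compared, 19 were lower, 7 were past 1.5-fold where 4.13% of all genes were, and the median was −0.41. Among the listed members, 22 had at least 50 UMIs in MASH-Phe-free alone and 19 had them in MASH alone, and the count is a description. Relative to Chow the median was −0.027, with 10 of 22 members higher and 12 lower. Of these, 3 were past 1.5-fold higher and 0 lower, where 6.71% and 6.11% of all genes were. B2m, the invariant chain of MHC class I, was at 2411, 3245 and 1978 CPM, a ratio of 0.609 [0.577–0.644]. H2-K1, a class I heavy chain, was at 961, 1146 and 729 CPM, a ratio of 0.636 [0.580–0.699]. Ciita had a ratio of 0.573 [0.463–0.709] and Ctss of 0.646 [0.595–0.702]. The difference was larger among cells above 1000 CPM of Siglech, where 10 of 18 members were past 1.5-fold lower where 4.61% of all genes were, and the median was −0.60. There Cd74 was at 11980, 13830 and 8349 CPM, a ratio of 0.604 [0.581–0.627], and H2-Aa at 3952, 3792 and 2504 CPM, a ratio of 0.660 [0.615–0.709]. Cells above the line differed widely. MHC class II genes summed per cell had lower quartiles of 9176, 14960 and 2325 CPM there. Their upper quartiles were close, at 28170, 27210 and 26320 CPM, and the intervals leave this spread between cells out. Over the same 22 members the other gates had medians of 0.04, −0.20, −0.03 and −0.13 in cDC1, cDC2, B and T cells. Whether the pDC value differs from theirs was not tested.

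Most pDC identity genes were lower in MASH-Phe-free. Of 19 markers outside the rule that could be compared, 17 were lower, 4 past 1.5-fold and 1 was past 1.5-fold higher, where 4.13% and 5.99% of all genes were, with a median of −0.29. Pacsin1, a membrane-bending adaptor linked to interferon secretion, was at 327, 309 and 181 CPM, a ratio of 0.587 [0.488–0.706], and 0.630 [0.521–0.762] above 1000 CPM of Siglech. Ly6c2 was at 2433, 2933 and 1823 CPM, a ratio of 0.622 [0.586–0.659], and the inhibitory collagen receptor Lair1 at 486, 433 and 318 CPM, a ratio of 0.735 [0.634–0.853]. Above the line the median was −0.24 with 3 of 19 past 1.5-fold lower and 1 higher, where 4.61% and 7.80% of all genes were. Without cells carrying other lineage markers it was −0.20 with 3 lower and 1 higher, where 3.60% and 5.28% were. Irf8 had a ratio of 1.14 [1.08–1.21], and of 1.05 [0.977–1.12] above the line, with 1 inside the interval. The lowest ratios over all genes included receptors. Grm8, a metabotropic glutamate receptor, was at 501 (Chow), 528 (MASH) and 199 (MASH-Phe-free) CPM, a ratio of 0.376 [0.321–0.440] and of 0.396 [0.338–0.464] above the line. Cd4, which mouse pDC carry, was at 111, 146 and 56.8 CPM, a ratio of 0.389 [0.288–0.526]. Ptprs, a phosphatase that restrains pDC activation, was at 241, 229 and 134 CPM, a ratio of 0.583 [0.470–0.724], and Ccr9 had a ratio of 0.608 [0.517–0.716]. Ly6a, the stem cell antigen Sca-1, was outside the naming rule because 1 MASH cell held 22.1% of its UMIs. It was at 332, 324 and 43.1 CPM, and above the line at 437, 570 and 80.2 CPM, a ratio of 0.141 [0.103–0.190].

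Summed levels of cell cycle genes were higher in MASH-Phe-free than in MASH. Of 18 listed, 17 could be compared with MASH, 13 were past 1.5-fold higher where 5.99% of all genes were, and the median log2 ratio was 1.17. The count minimum bears on this number, since all 17 had at least 50 UMIs in MASH-Phe-free alone and 6 had them in MASH alone, so members low in MASH entered only through MASH-Phe-free. The count is a description and no support for the direction. Among the replication licensing genes, Mcm3 was at 37.1 (Chow), 11.7 (MASH) and 115 (MASH-Phe-free) CPM, a ratio of 9.86 [4.89–23.2], which was 2.49 [0.937–8.34] above the line, and Mcm6 at 47.2, 21.9 and 122 CPM, a ratio of 5.57 [3.29–10.2]. Mcm2 was at 16.9, 2.92 and 51.3 CPM, a ratio of 17.6 [4.71–148] that rests on 2 UMIs in MASH. Pclaf, a partner of the replication clamp, was at 116, 19.0 and 298 CPM, a ratio of 15.7 [9.09–29.7], with its UMIs in 1 cell in Chow, 1 in MASH and 15 in MASH-Phe-free. Clspn, a replication checkpoint gene, was at 13.5 CPM in Chow, had 0 UMIs in MASH, which allows up to 4.38 CPM, and was at 56.1 CPM in MASH-Phe-free. A cell with UMIs of at least 3 of 8 mitotic genes, a count set after the data were seen, was called cycling. There were 2 of 40 such cells in Chow (5.00% [0.611–16.9]), 1 of 41 in MASH (2.44% [0.0617–12.9]) and 12 of 91 in MASH-Phe-free (13.2% [7.004–21.9]), and their intervals overlap. Of these, 1, 0 and 5 lay above 1000 CPM of Siglech. Over all kept barcodes the cycling share was 3.17%, 5.89% and 9.01%, in cDC1 2.96%, 5.91% and 4.80%, in cDC2 2.99%, 2.03% and 9.32%, in B cells 1.42%, 2.47% and 3.71% and in T cells 3.41%, 4.11% and 4.88%. On the 17 members, all shared, the median MASH-Phe-free to MASH log2 ratio was 1.17 in pDC, −0.22 in cDC1, 1.43 in cDC2, 0.21 in B cells and 0.16 in T cells, and these differences between gates were not tested. A single cell held 46.8% of the list's UMIs in Chow, 68.0% in MASH and 13.3% in MASH-Phe-free. The 6 progenitor markers summed to 137, 111 and 302 CPM, 24.3% of the last in 1 cell, and their part in the result was not tested. Without cells carrying other lineage markers the median was 0.83. Above 1000 CPM of Siglech it was 2.60 over 8 members. There 7 listed members had at least 50 UMIs in MASH-Phe-free alone and 1 had them in MASH alone, and 1 MASH-Phe-free cell held 34.1% of the list's UMIs.

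Dntt, the template-free DNA polymerase of early lymphocytes that also marks pDC of lymphoid origin, had a wide spread. It was at 70.8 (Chow), 16.04 (MASH) and 161 (MASH-Phe-free) CPM, a MASH to Chow ratio of 0.227 [0.105–0.448], and 1 MASH-Phe-free cell held 51.1% of its UMIs there. In cells above the line it was at 91.8, 31.04 and 128 CPM, a MASH-Phe-free to MASH ratio of 4.12 [2.20–8.55]. Glucocorticoid targets stayed low in MASH-Phe-free. Relative to MASH their median was 0.32 with 1 of 7 past 1.5-fold higher where 5.99% of all genes were, and relative to Chow it was −0.66 with 5 of 8 past 1.5-fold lower where 6.11% of all genes were. Cxcr4, the marrow retention receptor, was at 165, 52.5 and 98.6 CPM, a MASH-Phe-free to MASH ratio of 1.88 [1.30–2.79], with 47.2% of its MASH UMIs in 1 cell.

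Because the series title names phenylalanine, genes of the amino acid stress response were examined as a fixed list. Of 26, 15 could be compared between MASH-Phe-free and MASH, 2 were past 1.5-fold higher and 1 past 1.5-fold lower, where 5.99% and 4.13% of all genes were, and the median was 0.28. Atf4, the transcription factor at the centre of that response, was at 86.0, 78.8 and 93.1 CPM, a ratio of 1.18 [0.856–1.65]. Asns, asparagine synthetase and a strong ATF4 target, had 0 UMIs in Chow and MASH and 1 UMI in MASH-Phe-free. Phgdh, the first enzyme of serine synthesis, was at 91.0, 43.8 and 91.0 CPM, a ratio of 2.08 [1.39–3.20], with MASH alone low. Shmt2, a mitochondrial one-carbon enzyme, was at 33.7, 24.8 and 43.8 CPM, a ratio of 1.77 [1.02–3.22]. Secretory pathway genes had a median of 0.14 with 0 of 23 past 1.5-fold higher or lower, where 5.99% and 4.13% of all genes were. Above the line the secretory median was 0.0014 with 11 of 22 higher and 11 lower. There 0 were past 1.5-fold higher and 1 lower, where 7.80% and 4.61% of all genes were. Below the line it was 0.26 with 3 of 20 past 1.5-fold higher and 1 lower, where 9.48% and 8.81% of all genes were. Hspa5 (BiP) was at 504, 411 and 536 CPM, a ratio of 1.30 [1.14–1.498]. Respiratory chain genes had a median of 0.02 with 0 of 13 past 1.5-fold higher or lower, where 5.99% and 4.13% of all genes were.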

How the data were processed

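Spleen cells of 3 libraries, 1 per group, were profiled with a 10x Genomics 5′ kit. Raw UMI counts per gene and barcode were deposited by the authors. Cell Ranger 9.0.1, Seurat 5.3.0 and the build GRCm39 are named in the submitters' processing notes; the sources used here do not give the annotation release. The libraries held 138787602, 152501471 and 160115282 UMIs in 16495, 19219 and 16778 barcodes over 33696 genes.

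The members and gene lists were chosen with earlier results of these data known. Counts were summed over gated cells and scaled to CPM. Ratios of levels carry exact conditional Poisson 95% intervals. Shares carry exact Clopper-Pearson intervals, and the ratio of a pair of shares a log-scale binomial interval, all for counting error only. Groups could not be tested, having 1 library each. Genes with at least 50 UMIs over both libraries were compared, log2 ratios used an offset of 10 CPM, and a gene counted as past the fold at 1.5-fold on that scale. The calculation was checked on simulated data. Doublets were marked with Scrublet and kept.

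Named genes were up to 4 members per list and 6 per direction over all genes farthest from 1. In the library where the gene was higher, they needed a level of 30 CPM, no cell with over 20% of the UMIs and 0.2 times the level of the whole library, and the interval had to leave out 1. Genes of the gate, pDC markers, Toll-like receptors, interferons and leading regulators were named in any case; other genes were chosen after their values were seen. Sex-linked, ribosomal, mitochondrial, haemoglobin and antigen receptor genes and unnamed gene models were not named. Alternatives varied the offset, count minimum, weighting, scaling, gate, doublets and depth. The sets with Siglech of at least 1000 CPM, with at least 4 outer markers and without cells carrying other lineage markers were added after seeing the data. Intervals came from scipy 1.17.1 and Scrublet from scanpy 1.11.5, under Python 3.11.15 with pandas 2.3.3, numpy 2.4.6 and matplotlib 3.10.9. Values of a few single genes are not reported here.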

Additional observations from a re-analysis of the deposited data

How the results depend on the processing

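With 1 library per group no replicate could be left out. No paired analysis was possible because each group has 1 library and the labels carry no replicate numbers. The share ratios ranged from 0.692 to 1.07 for MASH over Chow and from 2.35 to 2.79 for MASH-Phe-free over MASH over all alternatives. The cause of each change below was not tested. Values in parentheses are those of the report, as counts of genes or as log2 ratios (medians for lists). Genes past 1.5-fold higher (MASH over Chow, 224) came to 94 with an offset of 50 CPM, 502 from 20 UMIs, 96 from 100 UMIs, 350 with cells weighted alike, 130 in thinned cells, 128 above 1000 CPM of Siglech. Genes past 1.5-fold lower (MASH over Chow, 290) came to 71 with an offset of 50 CPM, 624 from 20 UMIs, 108 from 100 UMIs, 140 in thinned cells. Markers of pDC outside the rule (MASH over Chow, −0.079) came to 0.069 with cells weighted alike, 0.0060 with 3 of 5 genes, 0.079 without Cd79a cells, 0.062 in thinned cells, 0.24 above 1000 CPM of Siglech. Transcription factors of the dendritic lineages (MASH over Chow, −0.16) came to 0.013 without Cd79a cells, 0.047 above 1000 CPM of Siglech. Type I interferon response (MASH over Chow, 0.67) came to 0.50 with an offset of 50 CPM, 0.47 with cells weighted alike, 0.40 with 3 of 5 genes, 0.86 without Cd79a cells, 0.49 in thinned cells, 0.39 above 1000 CPM of Siglech, 0.38 with 4 outer markers, 0.14 without other-lineage cells. Antigen presentation and costimulation (MASH over Chow, 0.43) came to 0.35 with an offset of 50 CPM, 0.24 with 3 of 5 genes, 0.35 without Scrublet-marked cells, 0.30 above 1000 CPM of Siglech, 0.21 with 4 outer markers, 0.24 without other-lineage cells. Transitional and lymphoid-linked dendritic genes (MASH over Chow, 0.14) came to −0.32 above 1000 CPM of Siglech, −0.063 with 4 outer markers, −0.10 without other-lineage cells. Glucocorticoid targets (MASH over Chow, −0.94) came to −0.63 with an offset of 50 CPM, −0.42 in thinned cells, −0.61 above 1000 CPM of Siglech. Cell cycle (MASH over Chow, 0.51) came to 0.17 from 20 UMIs, 0.027 in thinned cells, −0.38 above 1000 CPM of Siglech, 1.67 with 4 outer markers, 1.77 without other-lineage cells. Spi1 (MASH over Chow, 0.56) came to −0.022 above 1000 CPM of Siglech. Sec61b (MASH over Chow, −0.30) came to 0.064 with 4 outer markers. Cxcr3 (MASH over Chow, −0.53) came to 0.041 in thinned cells. Crip1 (MASH over Chow, 0.66) came to −0.32 above 1000 CPM of Siglech. Tcf4 (MASH over Chow, −0.18) came to 0.013 without Cd79a cells, 0.11 above 1000 CPM of Siglech. Irf8 (MASH over Chow, −0.21) came to 0.093 above 1000 CPM of Siglech. Zeb2 (MASH over Chow, 0.38) came to −0.019 without other-lineage cells. Genes past 1.5-fold higher (MASH-Phe-free over MASH, 402) came to 130 with an offset of 50 CPM, 693 from 20 UMIs, 192 from 100 UMIs, 226 in thinned cells. Genes past 1.5-fold lower (MASH-Phe-free over MASH, 277) came to 78 with an offset of 50 CPM, 484 from 20 UMIs, 130 from 100 UMIs, 146 in thinned cells. Markers of pDC outside the rule (MASH-Phe-free over MASH, −0.29) came to −0.21 with cells weighted alike, −0.19 in thinned cells, −0.22 with 4 outer markers, −0.20 without other-lineage cells. Type I interferon response (MASH-Phe-free over MASH, −0.84) came to −0.59 with an offset of 50 CPM, −0.66 with cells weighted alike, −0.64 with 3 of 5 genes, −0.48 above 1000 CPM of Siglech, −0.72 with 4 outer markers, −0.56 without other-lineage cells. Antigen presentation and costimulation (MASH-Phe-free over MASH, −0.41) came to −0.47 with 3 of 5 genes, −0.60 above 1000 CPM of Siglech. Trafficking receptors (MASH-Phe-free over MASH, −0.11) came to 0.083 above 1000 CPM of Siglech. Glucocorticoid targets (MASH-Phe-free over MASH, 0.32) came to 0.056 in thinned cells. Cell cycle (MASH-Phe-free over MASH, 1.17) came to 0.86 with an offset of 50 CPM, 2.60 above 1000 CPM of Siglech, 0.83 without other-lineage cells. Zeb2 (MASH-Phe-free over MASH, −0.44) came to 0.11 without other-lineage cells. Slc15a4 (MASH-Phe-free over MASH, −0.40) came to 0.049 in thinned cells. Ccr2 (MASH-Phe-free over MASH, −0.52) came to 0.13 above 1000 CPM of Siglech. Runx2 (MASH-Phe-free over MASH, −0.15) came to 0.13 above 1000 CPM of Siglech. The cell cycle values for MASH-Phe-free over MASH rest on members that reached the count minimum largely through MASH-Phe-free. In the main setting the glucocorticoid targets compared between MASH and Chow all reached it in Chow alone, and fewer did in MASH alone. More interferon response and antigen presentation members reached it in MASH alone than in Chow alone. The scaling alternatives moved no count of genes by over 1.5 times. Gates of 40 to 91 cells limit what any library can show, since single cells held much of several genes.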
